A study of Mus musculus with 4 samples.

Results

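The 10 genes described here regulate the somatic cells of the embryonic gonad, and were read in RNA-seq counts of a mouse preparation labelled as primordial germ cells (strain C57BL/6, embryonic stage E12.5). The genes are a list of symbols that sets no threshold on their values, and all 10 were found among the 53715 genes of the count table. They are Wt1, Nr5a1, Gata4, Lhx9 and Emx2 (5 genes of the gonad primordium), Foxl2, Wnt4 and Fst (3 genes of the ovary pathway), and Sox9 and Amh (2 genes of the testis pathway). They are known as genes of gonadal somatic cells, so their levels were read as a measure of somatic RNA in the libraries. Whether germ cells in these libraries also expressed them was not tested. There were 2 libraries labelled WT (wild type) and 2 labelled Rif1_KO (a knockout of Rif1, which encodes a chromatin protein of replication timing and break repair). Each was made from 1000 cells taken by MACS, a sort on magnetic beads, with a modified Smart-seq2 protocol, which copies whole transcripts from little RNA. The labels do not give the antibody used on the beads, the sex of the embryos, the number of embryos per library or the part of Rif1 that was deleted. No label says whether replicates are separate embryos, so p-values measure only how far these libraries differ, and that spread may be technical.

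The gonad forms as a ridge of coelomic epithelium beside the mesonephros, the transient kidney of the embryo. Wt1, Nr5a1, Gata4, Lhx9 and Emx2 encode transcription factors that this ridge needs in order to form, in both sexes. In XY gonads Sry then turns on Sox9 in the supporting cells, which become Sertoli cells and secrete anti-Müllerian hormone, the product of Amh. In XX gonads the supporting cells become pre-granulosa cells, and Wnt4, Rspo1, Foxl2 and Fst act on the ovarian side. Germ cells lie among these somatic cells and are separated from them when a gonad is dissociated and sorted.

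Totals ran from 11724630 to 14421298 counts per library. Values are given below for replicate 1 and then replicate 2 of a label. Counts of Rif1 itself were 474 and 44 (labelled WT) and 1144 and 1207 (labelled Rif1_KO). On the TMM-scaled level this was 43.7 and 4.73 against 86.2 and 63.9 CPM (counts per 1000000), with an edgeR adjusted p of 0.717. Rif1 transcript was thus not lower with the label Rif1_KO. Since the deleted part of Rif1 is not given, these counts cannot show whether the label is right. Libraries are named by their labels throughout, and directions are those of the labels only. Haemoglobin and rRNA-region genes together took 26.5 to 27.6% of counts (labelled WT) and 4.96 to 7.71% (labelled Rif1_KO). Of 15466 genes tested, edgeR called 2 (0.0129%), both with lower values in the libraries labelled Rif1_KO, and DESeq2 called 521 (3.37%).

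Transcripts of the 10 gonadal somatic regulators were found in all 4 libraries. Their total did not separate the labels, while their TMM-scaled sums by role did, in opposite directions. Most single members did not separate them: all 5 primordium genes and 2 of the 3 ovary pathway genes overlapped. Of all tested genes taken singly, 39.4% did not overlap between the labels. The 10 genes summed to 780 and 871 CPM (labelled WT) and to 918 and 789 CPM (labelled Rif1_KO). The groups overlapped, with means of 825 ± 64.5 and 853 ± 91.2 CPM (SD, n = 2 each) and 1.03 as their ratio. In a bulk library, fewer somatic cells and less RNA per somatic cell cannot be told apart. By role, the 5 primordium genes summed to 526 and 468 against 664 and 579 CPM, a ratio of 1.25. The 3 ovary pathway genes summed to 245 and 384 against 224 and 178 CPM, a ratio of 0.639. The 2 testis pathway genes, nearly all of it Sox9, summed to 7.92 and 19.6 against 29.9 and 31.8 CPM. Amh, at 2 and 6 against 1 and 1 counts, did not share this direction. With upper-quartile factors, an alternative for these role sums added after seeing the data, the ovary sums overlapped (221 and 352 against 255 and 188 CPM) and the primordium sums did not. The TMM-scaled sums of the other listed genes of each role, given below, overlapped between the labels. Their ratios were 1.01 (ridge), 1.18 (ovary pathway) and 0.851 (testis pathway), so the wider lists did not repeat the separation by role. The even total is one of TMM-scaled values. As a share of the deposited counts, the 10 genes took 0.0663% and 0.0691% (labelled WT) and 0.101% and 0.103% (labelled Rif1_KO), and these shares did not overlap. The mean shares, 0.0677% ± 0.00199 and 0.102% ± 0.00168 (SD, n = 2 each), had a ratio of 1.51, beside the haemoglobin and rRNA-region shares given above, whose part in this ratio was not tested. With haemoglobin, rRNA-region and mitochondrial genes left out before scaling, the log2 ratio of the sums was 0.11, against 0.05 with all genes. With DESeq2's size factors its sign turned (-0.03), and with upper-quartile factors it was 0.32. Sums were not tested, because the smallest two-sided p of an exact permutation test on 2 libraries per label is 0.33.

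As a sum, germ cell genes were far less even than the 10 somatic regulators, with WT replicate 2 far above the other libraries. Single regulators were less even than their sum: Nr5a1 and Foxl2 differed 7.98-fold and 7.86-fold from the lowest to the highest library. A list of 16 germ cell genes summed to 60.9 and 761 CPM (labelled WT) and to 80.5 and 42.5 CPM (labelled Rif1_KO). Only in WT replicate 2 was this sum near that of the 10 somatic regulators. The germ cell helicase gene Ddx4, chosen after its values were seen, was at 7 and 551 counts (labelled WT) and at 14 and 10 (labelled Rif1_KO). Per kilobase of exon, Wt1 was 171 and 0.786 times as abundant as Ddx4 (labelled WT) and 71.7 and 154 times as abundant (labelled Rif1_KO). Against Dppa3, a germ cell and pluripotency gene, Wt1 was at 3.20 and 0.0836 times (labelled WT) and at 1.89 and 4.19 times its level per kilobase. Single germ cell genes did not all follow the sum: 9 of the 16 were highest in WT replicate 2. Some of these 9 had few counts, and the share of all genes highest in that library was not determined. Prdm14, a gene of germ cell specification, had 19.9 and 18.4 against 0.452 and 0.106 CPM. Dppa3 lay at the percentiles 76.1, 81.2 and 69.4 of tested genes in the other 3 libraries. The plot of list sums shows these levels for each library.

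**Figure D1:**
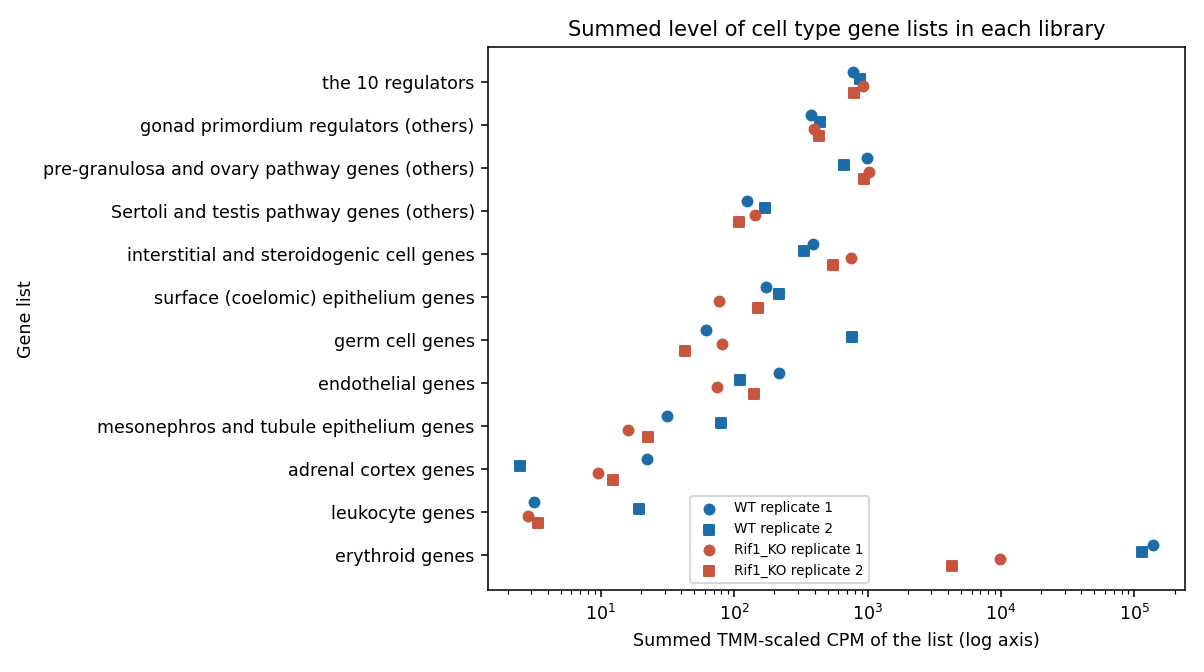
Summed TMM-scaled CPM (log axis) of the 10 regulators and of lists of cell type genes, with 1 point per library (blue WT, red Rif1_KO; circles replicate 1, squares replicate 2). The 10 regulators lie between 780 and 918 CPM in every library, while germ cell genes lie at 761 CPM in WT replicate 2 and at 42.5 to 80.5 CPM in the other libraries.

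Of the 10 regulators, 9 had at least 10 counts in every library and entered the test; Amh did not pass the filter on low counts. None of the 9 passed edgeR's quasi-likelihood test with Benjamini-Hochberg adjustment over all genes, beside 0.0129% of all genes, and 0 had an unadjusted p under 0.05, beside 8.41% (828 genes higher and 472 lower, or 1055 and 295 with upper-quartile factors). DESeq2 also called 0 of the 9. Fitted log2 fold changes (Rif1_KO over WT) were above 0 for 5 genes, beside 46.1% of all genes, and below 0 for 4, with a median of 0.00 beside -0.11 over all tested genes. They ran from -0.69 for Fst to 1.21 for Sox9. In 1 gene both libraries labelled Rif1_KO lay above both libraries labelled WT, beside 21.0% of all genes, and in 1 both lay below, beside 18.4%. All 9 intervals held 0, and that of Foxl2 was the widest. A p that misses the threshold here does not show equal levels, since on simulated data the edgeR test found none or few of the changes of moderate size.

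**Figure D2:**
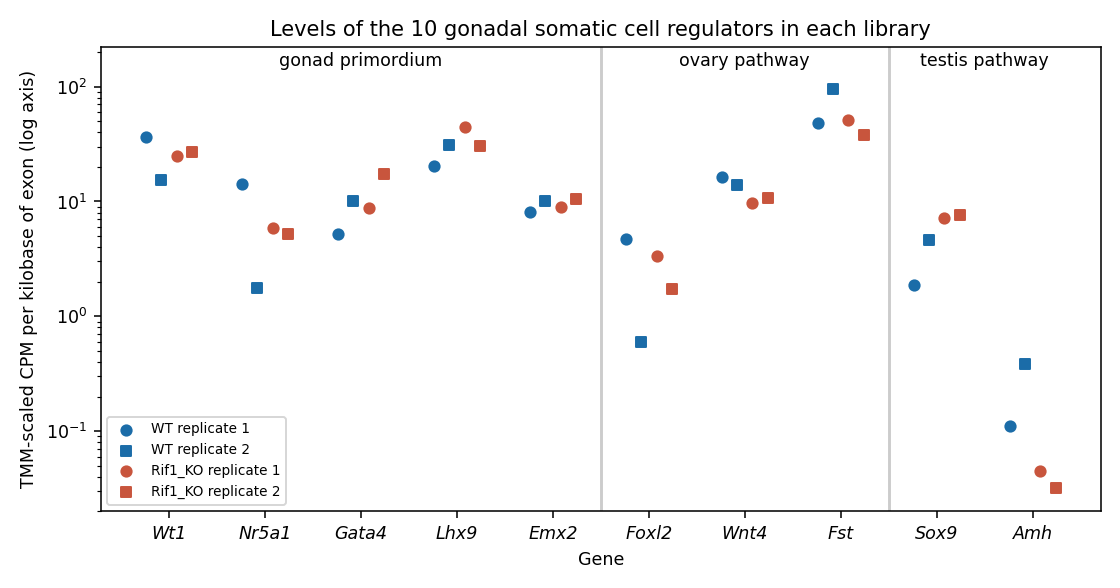
TMM-scaled CPM per kilobase of exon (log axis) of the 10 regulators, with 1 point per library (blue WT, red Rif1_KO; circles replicate 1, squares replicate 2). Fst, Lhx9 and Wt1 are the most abundant on average, Wt1, Nr5a1 and Foxl2 are lowest in WT replicate 2, and Amh lies at 0.386 or less in every library.

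Compared per kilobase, Fst had the highest mean level over the 4 libraries, 58.1 ± 25.7 CPM per kilobase (SD, n = 4, here and in the rest of this order). Lhx9 followed at 31.6 ± 9.88 and Wt1 at 26.1 ± 8.70 CPM per kilobase. Then came Wnt4 (12.6 ± 3.08), Gata4 (10.4 ± 5.17), Emx2 (9.43 ± 1.09), Nr5a1 (6.75 ± 5.26), Sox9 (5.34 ± 2.69) and Foxl2 (2.59 ± 1.79 CPM per kilobase). Amh was last at 0.143 ± 0.166 CPM per kilobase. The ranges of every pair of neighbours in this order overlapped, except those of Foxl2 and Amh. Within single libraries, Fst was above Lhx9, and Wt1 above Wnt4, in 4 of 4 libraries, whereas Gata4 was above Emx2, and Nr5a1 above Sox9, in 1 of 4 each. Against all tested genes, Fst lay between the percentiles 91.7 and 95.7 and Foxl2 between 37.1 and 61.4.

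Lhx9 encodes a LIM homeodomain factor of the gonadal ridge (ENSMUSG00000019230.14, chromosome 1, 138825186 to 138848577, mm10, minus strand). It had 2111 and 2747 counts (labelled WT) and 5613 and 5457 (labelled Rif1_KO), or 194 and 295 against 423 and 289 CPM. Rif1_KO replicate 1 was the highest, and the groups overlapped. The log2 fold change was 0.54 (SE 0.36, 95% interval -0.33 to 1.40, edgeR adjusted p = 0.746). Lhx9 had the highest mean level per kilobase of the transcription factors among the 10 genes and was above Wt1 in 3 of 4 libraries (not in WT replicate 1), so the stretch before its RefSeq start is shown (GRCm38.p6, chr1:138842458-138842694, minus strand, 237 bases, written 5′ to 3′). It lies inside the gene but outside its annotated exons, and exon bases of the original window were left out. RefSeq windows were found for 4 of the 10 genes (Lhx9, Wnt4, Foxl2 and Emx2). Capitals mark the match to a GATA motif, the kind of site that GATA4 binds.

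Lhx9: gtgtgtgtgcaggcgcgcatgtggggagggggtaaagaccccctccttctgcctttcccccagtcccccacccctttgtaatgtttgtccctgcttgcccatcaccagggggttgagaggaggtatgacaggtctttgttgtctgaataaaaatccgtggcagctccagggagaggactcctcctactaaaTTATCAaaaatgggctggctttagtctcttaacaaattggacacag

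Both strands were searched. The GATA motif, spelled AGATAA or TGATAA, had 1 match, and no other motif searched overlapped it. The NR5A1 motif, spelled CAAGGTCA, had 0 matches. The SOX motif, spelled AACAAT, and the homeodomain motif, spelled TAATTA, had 0 matches each. The TCF/LEF motif, spelled CTTTGA, and the forkhead motif, spelled GTAAACA, also had 0. A GATA match was present in 16.1% of all RefSeq windows of this length, so it is common, and it is a match of letters only.

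Wt1 encodes a zinc finger factor of the gonadal ridge and of kidney podocytes (ENSMUSG00000016458.14, chromosome 2, 105126529 to 105173616). It had 2465 and 890 counts (labelled WT) and 2063 and 3173 (labelled Rif1_KO), or 227 and 95.7 against 155 and 168 CPM. Both libraries labelled Rif1_KO lay between the libraries labelled WT, which differed 2.37-fold. Means were 161 ± 92.9 and 162 ± 8.92 CPM (SD, n = 2 each), and the log2 fold change was 0.00 (SE 0.48, 95% interval -1.13 to 1.14, edgeR adjusted p = 0.999). Its sign turned in 5 of 12 alternative fits, among them RLE scaling.

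Nr5a1 encodes steroidogenic factor SF-1, a nuclear receptor of gonadal and adrenal cells (ENSMUSG00000026751.14, chromosome 2, 38692656 to 38714542). It had 652 and 70 counts (labelled WT) and 328 and 419 (labelled Rif1_KO), or 60.1 and 7.52 against 24.7 and 22.2 CPM. The libraries labelled WT were the highest and the lowest of the 4, 7.98-fold apart, and the libraries labelled Rif1_KO were 1.11-fold apart. The log2 fold change of -0.53 (SE 1.11, edgeR adjusted p = 0.943) became 1.69 without WT replicate 1 and -1.35 without WT replicate 2. With all 4 libraries its sign also turned with limma-voom (0.015) and with the replicate block (0.13). The sign thus depends on the libraries kept and on the fit.

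Gata4, a zinc finger factor needed for the ridge to thicken (ENSMUSG00000021944.15, chromosome 14, 63198922 to 63271692), had 221 and 364 counts (labelled WT) and 456 and 1291 (labelled Rif1_KO), or 20.4 and 39.1 against 34.4 and 68.4 CPM. Replicate 2 was above replicate 1 under both labels, and the groups overlapped. The log2 fold change was 0.79 (SE 0.75, 95% interval -1.004 to 2.58, edgeR adjusted p = 0.827). It was 0.27 without Rif1_KO replicate 2 and 1.34 without WT replicate 2.

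Emx2, a homeodomain factor of the urogenital ridge (ENSMUSG00000043969.4, chromosome 19, 59458372 to 59465357), was the most even of the 10 genes. It had 24.5 and 30.2 CPM (labelled WT) and 26.7 and 31.7 CPM (labelled Rif1_KO), 1.29-fold from lowest to highest. The log2 fold change was 0.10 (SE 0.82, 95% interval -1.85 to 2.04, edgeR adjusted p = 0.991). Of its exon bases 8.79% overlap the antisense gene Emx2os, and reads were counted without strand for every gene they overlap, so part of the count can belong to Emx2os. Emx2os had 588 and 23 counts (labelled WT) and 519 and 735 (labelled Rif1_KO), while Emx2 had 266 and 281 against 355 and 599. The part of the Emx2 counts that came from Emx2os was not tested. Exon overlap with other genes was 3.41% for Fst, 0.37% for Foxl2 and 0 bases for Nr5a1, with 3 counts or fewer per library in the genes overlapping Fst and Foxl2.

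Other genes of the ridge were given by a list of 15, of which 14 were tested, 0 were called and 0 had an unadjusted p under 0.05 by edgeR. Their median log2 fold change was 0.33 beside -0.11 over all genes, and their summed level was 374 and 442 CPM (labelled WT) and 394 and 430 CPM (labelled Rif1_KO). Gadd45g, a signalling gene upstream of Sry, was the most abundant of the list per kilobase, with 96.2 and 121 CPM against 49.1 and 69.0 CPM. Tcf21, a factor of gonadal and kidney mesenchyme, had the smallest p, with 0.553 and 4.73 CPM against 24.4 and 33.5 CPM (edgeR adjusted p = 0.594). Map3k4, a kinase upstream of Sry, had 7.83 and 48.3 CPM against 1.05 and 4.87 CPM (edgeR adjusted p = 0.629).

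On the ovarian side, all 3 genes had transcripts in all 4 libraries, with fitted values below 0 and none past the test. Fst encodes follistatin, a secreted protein that binds activins (ENSMUSG00000021765.8, chromosome 13, 114452262 to 114458949). It had 1752 and 3008 counts (labelled WT) and 2288 and 2410 (labelled Rif1_KO), or 161 and 323 against 172 and 128 CPM. WT replicate 2 was the highest, 2.00-fold above WT replicate 1, and the groups overlapped. The log2 fold change was -0.69 (SE 0.44, 95% interval -1.73 to 0.35, edgeR adjusted p = 0.723), and -0.10 without WT replicate 2.

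Wnt4 encodes a secreted WNT ligand that acts against the testis pathway (ENSMUSG00000036856.4, chromosome 4, 137277489 to 137299726). It had 746 and 542 counts (labelled WT) and 538 and 841 (labelled Rif1_KO), or 68.7 and 58.3 against 40.5 and 44.5 CPM. Both libraries labelled Rif1_KO lay below both libraries labelled WT in CPM, as for 18.4% of all tested genes. Means were 63.5 ± 7.40 and 42.5 ± 2.83 CPM (SD, n = 2 each), and the log2 fold change was -0.58 (SE 0.56, 95% interval -1.90 to 0.75, edgeR adjusted p = 0.829). Its sign was the same in all 12 alternative fits, from -0.68 to -0.28.

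Foxl2 encodes a forkhead factor of granulosa cells (ENSMUSG00000050397.4, chromosome 9, 98955288 to 98958543, 1 exon). It had 165 and 18 counts (labelled WT) and 145 and 106 (labelled Rif1_KO), or 15.2 and 1.93 against 10.9 and 5.61 CPM. As with Wt1 and Nr5a1, the libraries labelled WT were the highest and the lowest, here 7.86-fold apart. The log2 fold change was -0.05 (SE 1.46, 95% interval -3.54 to 3.43, edgeR adjusted p = 0.997), 2.14 without WT replicate 1 and -0.87 without WT replicate 2. Its sign turned in 7 of 12 alternative fits, among them upper-quartile scaling.

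Wt1, Nr5a1 and Foxl2 were lowest in WT replicate 2, while Fst was highest there and Wnt4 differed 1.18-fold between the libraries labelled WT. Of the 14 other genes of the ovary pathway list, 6 were lowest and 5 highest in WT replicate 2, and their sum was lowest there. The shares of all genes lowest or highest in that library were not determined. Among listed genes chosen after their values were seen, Lgr5, a WNT pathway receptor, had 52.2 and 1.72 CPM (labelled WT) and 25.2 and 34.4 CPM (labelled Rif1_KO). Znrf3, which encodes a membrane ubiquitin ligase of the same pathway, had 36.6 and 4.84 against 30.7 and 25.6 CPM. Runx1, a factor of pre-granulosa cells, went the other way, with 15.8 and 54.0 against 27.3 and 34.1 CPM. WT replicate 2 is also the library with the high germ cell values, and the part of cell makeup in these differences was not tested.

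The ovary pathway list held 14 further genes, of which 13 were tested, 0 were called and 0 had an unadjusted p under 0.05 by edgeR. Their median log2 fold change was 0.01 beside -0.11 over all genes, and their summed level was 992 and 664 CPM (labelled WT) and 1025 and 930 CPM (labelled Rif1_KO). Ctnnb1, which encodes the WNT effector beta-catenin and is active in most cells, was the most abundant of these per kilobase, with 383 and 244 against 329 and 300 CPM. Rspo1, the R-spondin that acts beside WNT4 in the ovary and was chosen after its values were seen, had 40.1 and 17.1 against 26.4 and 18.8 CPM. Kitl, the somatic ligand of the germ cell receptor KIT, had 344 and 208 against 419 and 392 CPM (edgeR adjusted p = 0.717). Fzd1, a WNT receptor gene, had 1.84 and 14.4 against 29.2 and 37.4 CPM with the same adjusted p.

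**Figure D3:**
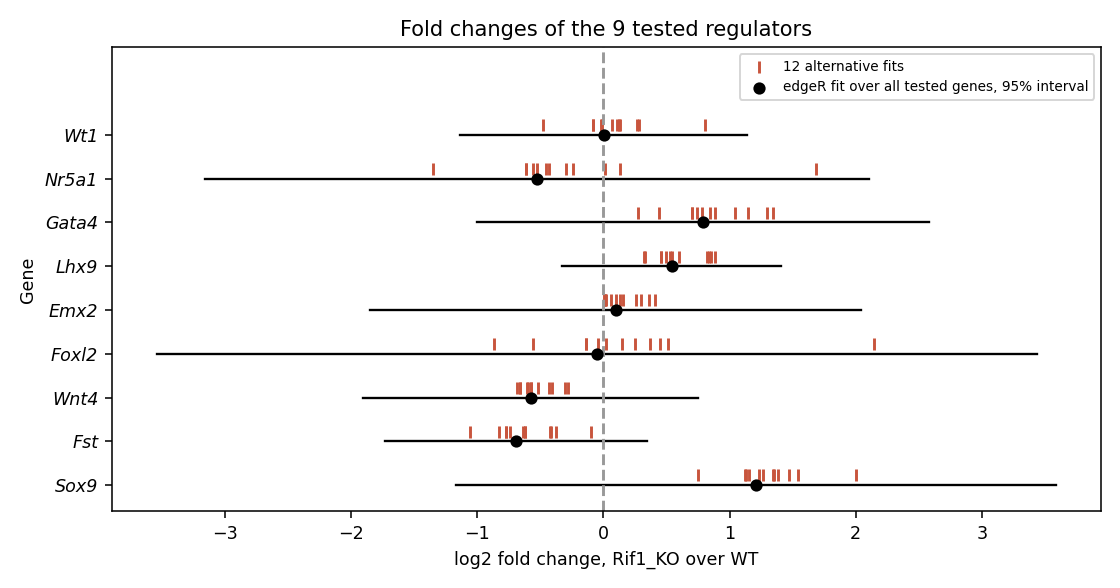
Log2 fold change (Rif1_KO over WT, horizontal axis) of the 9 tested regulators, with the edgeR estimate and its 95% interval in black and the 12 alternative fits as red ticks. Every interval crosses 0, and the alternative fits of Nr5a1, Foxl2 and Wt1 fall on both sides of 0.

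On the testis side, Sox9 and Amh stood far apart. Sox9 encodes the HMG box factor that drives Sertoli cell fate and is also active in many epithelia and in cartilage (ENSMUSG00000000567.5, chromosome 11, 112782224 to 112787760). It had 84 and 176 counts (labelled WT) and 396 and 600 (labelled Rif1_KO), or 7.74 and 18.9 against 29.8 and 31.8 CPM. Both libraries labelled Rif1_KO were above both libraries labelled WT, as for 21.0% of all tested genes. The means of 13.3 ± 7.91 and 30.8 ± 1.37 CPM (SD, n = 2 each) had a ratio of 2.31, and the log2 fold change was 1.21 (SE 1.00, 95% interval -1.17 to 3.59, edgeR adjusted p = 0.800). The sign was the same in all 12 alternative fits, from 0.75 to 2.00, with adjusted p from 0.283 to 1.00.

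Amh (ENSMUSG00000035262.5, chromosome 10, 80805243 to 80807648) had 2 and 6 counts (labelled WT) and 1 and 1 (labelled Rif1_KO). A count of 3, taken as the limit of what these libraries resolve, corresponds to 0.208 to 0.256 CPM of the deposited totals. Amh was at or under this limit in 3 of 4 libraries, so no fold change is given. Tested without the filter on low counts, it was not called (edgeR adjusted p = 0.881). Sry, the Y-linked switch of the testis pathway and named outside the rule, had 0 counts in all 4 libraries, which allows up to 3 counts in each.

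Transcripts of the sex chromosomes were read beside these genes. Xist, the RNA that coats the inactive X chromosome of XX cells, had 1536 and 1259 counts (labelled WT) and 498 and 1856 (labelled Rif1_KO). Of the Y-linked genes, Ddx3y had 0 and 1 counts (labelled WT), and 0 in both libraries labelled Rif1_KO. Eif2s3y had 0 and 3 counts (labelled WT) and 0 in both others, and Kdm5d and Uty had 0 in all 4 libraries. All 4 libraries thus held Xist and no more than 3 counts of any of these Y-linked genes. On the TMM-scaled level Xist was at 142 and 135 against 37.5 and 98.3 CPM (edgeR adjusted p = 0.668).

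**Figure D4:**
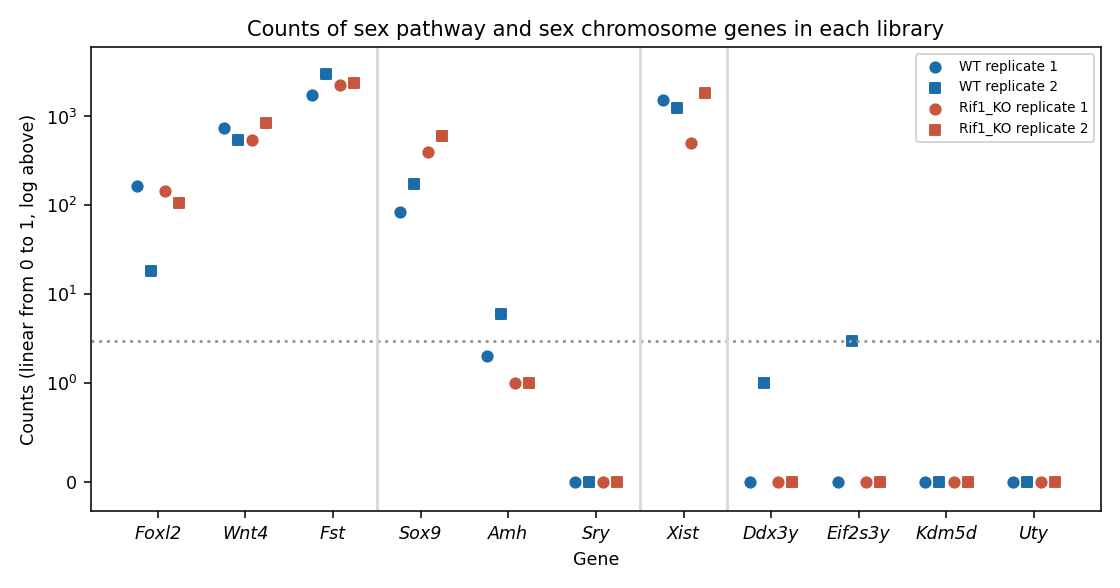
Counts per library (linear from 0 to 1, log above; blue WT, red Rif1_KO; circles replicate 1, squares replicate 2) of ovary pathway genes, testis pathway genes, Xist and Y-linked genes; the dotted line marks 3 counts. Foxl2, Wnt4, Fst, Sox9 and Xist are above the line in all libraries, and Sry, Kdm5d and Uty are at 0.

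Sox9 stayed below the ovarian genes Fst and Wnt4 per kilobase in every library. The level of Fst was 25.6 and 20.9 times that of Sox9 (labelled WT) and 7.08 and 4.92 times (labelled Rif1_KO). For Wnt4 these ratios were 8.76 and 3.04 against 1.34 and 1.38. Foxl2 was above Sox9 in WT replicate 1 (2.49 times) and below it in the other 3 libraries (0.130, 0.465 and 0.224 times).

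Further genes of the Sertoli and testis pathway numbered 19, of which 10 passed the filter and 0 were called by edgeR. At an unadjusted p under 0.05, 3 had higher and 1 had lower values in the libraries labelled Rif1_KO, beside 5.35% and 3.05% of all tested genes. DESeq2 called the same numbers, beside 2.13% higher and 1.24% lower over all genes. The lower gene was Inhbb, which a second list below also holds, and the 3 higher genes were Vnn1, Cldn11 and Aard. Aard, named here because of its count, had 1 and 4 counts against 197 and 41. Vnn1, a pantetheinase gene of Sertoli cells, had 0 and 1 counts (labelled WT) and 42 and 114 (labelled Rif1_KO), with an edgeR adjusted p of 0.571. Cldn11, a tight junction gene, had 3 and 3 counts against 75 and 331, with the same adjusted p. The most abundant of the list per kilobase were Cst9, a cystatin gene with 99 and 0 against 81 and 124 counts, and Fgfr2, a fibroblast growth factor receptor with 46.7 and 76.0 against 71.0 and 57.6 CPM. Dhh, the hedgehog ligand of Sertoli cells and chosen after its values were seen, had 3 and 8 against 49 and 3 counts. The summed level of the 19 genes was 124 and 170 against 142 and 108 CPM, and 1 of them (Sry) was at 0 throughout.

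AMH and follistatin act through the TGF-beta family, and a list of 12 genes for ligands, receptors and mediators was read beside them. All 12 were tested and 0 were called by edgeR; 1 (Inhbb again) had a lower value at an unadjusted p under 0.05, beside 3.05% of all genes, and DESeq2 called it lower, beside 1.24%. Their median log2 fold change was -0.66 beside -0.11 over all genes. Their TMM-scaled levels summed to 300 and 368 CPM (labelled WT) against 164 and 217 CPM (labelled Rif1_KO), without overlap. Other scalings of this sum were not tried. Of the 12 genes, 5 were lower in both libraries labelled Rif1_KO, beside 18.4% of all tested genes. In the other direction, 1 was higher in both, beside 21.0%. Amhr2, the receptor of AMH, was the most abundant per kilobase, with 48.0 and 101 CPM (labelled WT) and 16.7 and 68.7 CPM (labelled Rif1_KO). Inha, for the inhibin alpha subunit, had 8.75 and 32.5 against 22.7 and 21.2 CPM. Inhbb, for the beta-B subunit of activin and inhibin, had 23.5 and 39.4 against 2.19 and 3.71 CPM (log2 fold change -3.41, SE 1.19, edgeR adjusted p = 0.571, DESeq2 adjusted p = 0.0114). Smad2, a mediator of activin signals, had 22.2 and 56.8 against 5.12 and 12.7 CPM (edgeR adjusted p = 0.636).

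Several of the 10 genes are also active outside the gonad, so defining genes of those tissues were read. Cyp21a1, Cyp11b1, Mrap, Col2a1, Nkx2-5, Myh6, Alb, Ptf1a and Pdx1 are named here outside the rule, after their values were seen. For podocytes, which express Wt1, 4 listed genes were tested and 0 called by edgeR. Cd2ap, which is active in many cells, had 115 and 150 against 120 and 104 CPM, Ptpro 8.66 and 6.45 against 19.8 and 3.55 CPM, and Synpo 1.93 and 8.38 against 2.49 and 2.01 CPM. For the adrenal cortex, which expresses Nr5a1, the steroid enzyme genes Cyp21a1 and Cyp11b1 had 7 counts or fewer in every library. Of the 5 adrenal genes only Mc2r, the ACTH receptor, was tested, with 20.8 and 0.107 against 8.36 and 4.66 CPM, and it was not called. Akr1b7 had 2 and 6 against 2 and 103 counts, and Mrap 6 and 3 against 7 and 39 counts.

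For cartilage, which expresses Sox9, the collagen gene Col2a1 had 23 and 23 counts (labelled WT) and 27 and 9 (labelled Rif1_KO). Of the 7 cartilage genes 6 were tested and 0 called by edgeR, while 1 (Sox6) had a higher value at an unadjusted p under 0.05 and was called by DESeq2, beside 5.35% and 2.13% of all genes. Sox6 had 1.11 and 2.04 against 19.6 and 12.6 CPM, Sox5 28.9 and 5.05 against 23.6 and 7.63 CPM, Hapln1 3.32 and 43.0 against 8.51 and 26.5 CPM, and Acan 1.11 and 13.1 against 0.452 and 0.953 CPM. For heart, liver and pancreas, which express Gata4 or Sox9, Nkx2-5, Alb, Ptf1a and Pdx1 had 9 counts or fewer in every library. Of those 8 genes 4 were tested and 0 called by edgeR, while 1 (Cpa1) had a higher value by the same p and was called by DESeq2, beside those same shares. Cpa1, a pancreatic carboxypeptidase, had 1 and 2 against 679 and 806 counts, Afp 5 and 19 against 3 and 105 counts, and Tnnt2 20 and 18 against 14 and 12 counts. Myh6, of the same list, had 17 and 19 against 19 and 145 counts. The part of any such tissue in the levels of the 10 genes was not tested.

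For each tested regulator, the 2 genes with a mean of at least 5 CPM over the 4 libraries whose log2 values had the most similar pattern over the 4 libraries were found by the root-mean-square difference. The differences, over 4 libraries and with many genes to choose from, ran from 0.0278 to 0.119. The nearest were Gm12841 and Ddx24 for Wt1, Golgb1 and Ing1 for Nr5a1, Raph1 and Klhl23 for Gata4, Dynlrb1 and Tsg101 for Lhx9, and Xbp1 and Cisd3 for Emx2. For Foxl2 they were Gins4 and Ppil4, for Wnt4 Prcd and Son, for Fst G2e3 and Abi2, and for Sox9 Dek and 2700099C18Rik. No regulator was among the nearest genes of another. With only 2 genes kept per regulator out of many, this does not show whether the regulators vary together.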

How the data were processed

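The authors deposited 1 table of raw fragment counts per gene for 4 libraries (2 WT, 2 Rif1_KO), together with exon lengths. Per the file headers, featureCounts 1.6.2 counted read pairs of mapping quality 30 or more on GENCODE M17, for every gene they overlap and without strand. HISAT2, SAMtools, Trim Galore and FastQC were named with build mm10 per the submitters' processing notes. Symbols were matched by Ensembl identifier (95 of 53715 had none).

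Genes were filtered with edgeR's filterByExpr (minimum count 10), which left 15466. The test was edgeR 4.0.16 (R 4.3.3), quasi-likelihood with TMM factors, fitted on the 4 libraries, with Benjamini-Hochberg adjustment at 0.05. SE is the log2 fold change over the square root of F, and intervals are 95%. CPM uses TMM-scaled totals of the filtered genes; levels per kilobase divide by exon length. DESeq2 1.42.0 and limma 3.58.1 (voom), other scalings and filters, a replicate block and leaving out each library were alternatives. The steps were tested on simulated data, where edgeR missed most changes, also large ones, and made no false calls, while DESeq2 found more of the large changes and made false calls, so its calls are less certain. The replicates of each group differed beyond sampling noise (chi-square per degree of freedom 50.8 and 43.6). Precision is limited by 2 libraries per group, and limits from counts hold counting error alone (no molecular identifiers).

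The members and the 16 gene lists (175 entries) were chosen with earlier results of these data known. Named genes are the 10 members, Rif1, the sex chromosome list and, for each list, the 2 with the highest level per kilobase and the 2 non-members with the smallest p, plus the 2 most similar genes per member (log2 of CPM + 0.5); others are marked. Sequence came from RefSeq (GRCm38.p6). 1 listed gene is not reported here.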

Additional observations from a re-analysis of the deposited data

How the results depend on the processing

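The 10 regulators had 0 calls in all 12 alternatives. Signs of Lhx9, Gata4, Emx2, Wnt4, Fst and Sox9 held in all 12. Emx2 was near 0 in some of them, at 0.0009 without WT replicate 1 and 0.012 with RLE factors. The fits share libraries, so they are not independent of each other. The sign of Foxl2 turned with upper-quartile factors (0.25), with haemoglobin, rRNA-region and mitochondrial genes left out (0.017), without the filter on low counts (0.15), with limma-voom (0.45), with the replicate block (0.52), and without WT replicate 1 or Rif1_KO replicate 2 (2.14 and 0.37). That of Nr5a1 turned with limma-voom (0.015), the replicate block (0.13) and without WT replicate 1 (1.69). That of Wt1, at 0.00, turned with RLE factors (-0.081), the stricter filter of 50 counts (-0.011), DESeq2 (-0.081) and without WT replicate 2 or Rif1_KO replicate 2 (-0.48 and -0.018). With 1 library left out Foxl2 ran from -0.87 to 2.14, Nr5a1 from -1.35 to 1.69 and Wt1 from -0.48 to 0.81. The median log2 fold change of the regulators was -0.10 to 0.44 with 1 library left out, the highest value coming without WT replicate 1. The log2 ratio of their sums was 0.32 with upper-quartile factors, 0.34 without the filter, and 0.019 to 0.21 with 1 library left out, highest without Rif1_KO replicate 2. The cause of these shifts was not tested. Over all genes the number called was 2, against 0 with upper-quartile factors, 0 with the composition genes left out, 54 without the filter, 0 with the stricter filter, 521 with DESeq2, 7 with the replicate block and 5 to 1345 with 1 library left out (1345 without WT replicate 1, 890 without WT replicate 2, 8 and 5 without Rif1_KO replicates 1 and 2). For all listed genes it was 2, against 0, 0, 8, 0, 18 and 5 in the same order, and 2 to 21 with 1 library left out. In those last fits a lone library is assumed to vary like the other group. The median log2 fold change of all genes was -0.11 with TMM, -0.19 with RLE and 0.16 with upper-quartile factors. At an unadjusted p under 0.05, 828 genes were higher and 472 lower with TMM, 1055 and 295 with upper-quartile factors. No label says that the replicate numbers mark a shared litter or day. Same-numbered libraries deviated from their group means with a correlation of -0.024 over 15466 genes. With 2 libraries per group, this does not show whether they had a shared origin.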

Other observations

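Genes of the interstitial and steroidogenic cells of the gonad had a summed level of 386 and 330 CPM (labelled WT) against 748 and 551 CPM (labelled Rif1_KO), without overlap. Of 17 listed genes 13 were tested and 0 were called by edgeR or DESeq2; 1 (Nr2f2) had a higher value at an unadjusted p under 0.05, beside 5.35% of all genes, and 11 had fitted values above 0 (46.1% of all tested genes did). The list shares Tcf21 with the list of ridge genes. Nr2f2, a nuclear receptor of mesenchymal cells, had 215 and 162 CPM against 476 and 268 CPM (log2 fold change 0.98, SE 0.39, edgeR adjusted p = 0.577). Hsd3b1, a steroid enzyme gene, had 422 and 0 counts against 165 and 275. The Leydig cell genes Insl3 and Cyp17a1, chosen after their values were seen, had 0 and 0 against 1 and 16 counts, and 1 and 4 against 5 and 145 counts. Cyp11a1, of the same list and chosen in the same way, was not higher, with 3 and 10 against 3 and 6 counts.

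Of 9 genes of the surface epithelium of the gonad, 7 were tested and 0 called by edgeR; at an unadjusted p under 0.05, 1 had a higher and 1 a lower value, beside 5.35% and 3.05% of all genes, and DESeq2 called 1 higher, beside 2.13%. The 9 genes summed to 172 and 215 CPM (labelled WT) against 77.4 and 151 CPM (labelled Rif1_KO), without overlap, while 4 of the 7 tested genes overlapped singly. Krt8, an epithelial keratin gene, had 84.4 and 103 CPM against 10.5 and 37.0 CPM, and Krt18, its partner, 31.7 and 47.6 against 15.7 and 51.5 CPM. Gpm6a, a membrane glycoprotein gene, had 0.368 and 0.215 against 34.9 and 4.93 CPM (edgeR adjusted p = 0.571).

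Other lists are given as values. Mesonephros and tubule genes summed to 31.5 and 80.1 against 15.97 and 22.6 CPM (4 of 8 tested, 0 called), with Epcam at 20.4 and 61.3 against 3.24 and 9.27 CPM, Pax8 at 8.57 and 12.3 against 10.7 and 10.22 CPM and Cdh16 at 0.553 and 3.12 against 0.904 and 0.318 CPM. Endothelial genes summed to 216 and 109 against 74.2 and 141 CPM (7 of 7 tested, 0 called), with Emcn at 86.9 and 31.3 against 40.7 and 65.6 CPM, Pecam1 at 53.0 and 63.96 against 4.75 and 36.4 CPM and Tie1 at 6.45 and 1.18 against 0.829 and 1.32 CPM. Leukocyte genes summed to 3.13 and 19.2 against 2.86 and 3.39 CPM (2 of 7 tested, 0 called), with Csf1r at 7 and 157 against 15 and 53 counts, Ptprc at 12 and 15 against 6 and 5 counts and C1qb at 5 counts or fewer. Erythroid genes, 11 of 11 tested, held the 2 genes called lower over all genes, Hba-a1 and Hba-a2 (edgeR adjusted p = 0.036 each), and Hbb-y had 350846 and 156162 against 18984 and 933 counts. Hba-a1 and Hba-a2 are near-identical copies, so their split is uncertain. Of the germ cell list 11 of 16 genes were tested and 0 called by edgeR, while 4 were lower and 1 higher by unadjusted p (under 0.05) beside 3.05% and 5.35% of all genes, and 3 were lower by DESeq2, beside 1.24%. Dppa5a, the most abundant of them per kilobase, had 3.32 and 241 against 34.4 and 2.28 CPM. Dazl, an RNA-binding gene of germ cells, had 13.0 and 196 against 2.03 and 4.08 CPM.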
